A study of Mus musculus with 9 samples.

Results

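A set of 9 genes that carry, make, break down or sense retinoic acid, the active form of vitamin A, was followed in kidney RNA from Bmal1 knockout and wild-type mice. Bmal1 is a core activator of the circadian clock. The 9 genes were taken by symbol from tables of 23282 symbols and each symbol had 1 row: Crabp1, Crabp2, Rbp4, Rdh10, Aldh1a1, Aldh1a2, Aldh1a3, Cyp26b1 and Rarb. The choice rested partly on these libraries, because Crabp1 has the largest increase in Bmal1 knockout of all genes tested. Genotype differences of the 9 genes are therefore given as descriptions, without p-values, and support no statement. The study has 5 Bmal1 -/- libraries and 4 wildtype libraries, all from whole kidney of C57BL/6 mice. The labels do not name the allele or the deleted exons, nor age, sex, hour of sampling or whether each library is a separate animal, so that SEs and p-values cover only the spread between these libraries.

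Values are log2(x + 1), where x is a read abundance brought by the authors to similar totals. The method counts tags at the 3′ end of transcripts, about a single tag per transcript, so levels of different genes can be set side by side without correction for length. Kidney markers were abundant. The proximal tubule gene Lrp2 averaged 13.3 in knockout and 13.9 in wild type, and all 9 podocyte markers passed the filter. Adjusted totals were 11765219 to 13486444 per library, and the raw depth is unknown. The share of the ribosomal precursor Rn45s was 6.83% to 14.4% in knockout and 5.07% to 11.3% in wild type. Symbols with x of at least 10 averaged 13400 in knockout and 13150 in wild type (two-sided exact permutation p = 0.00794 over 126 splits, the smallest they can give). Adjusted over the library measures compared (Benjamini-Hochberg), this permutation p was 0.0318. The same permutation test gave unadjusted p = 0.175 for the Rn45s share, 0.159 for the share of globin genes and 0.143 for the total. Arntl, the gene encoding Bmal1, averaged 5.85 in knockout and 6.69 in wild type, a difference of -0.84 (SE 0.21, limma adjusted p = 0.0112). All 5 knockout values were below all 4 wild-type values, but a 3′ tag outside the deleted part would still be counted, so this does not check the labels.

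Retinol travels in blood on retinol-binding protein, encoded by Rbp4, and is oxidized in cells to retinaldehyde, chiefly by Rdh10, and then to retinoic acid by the Aldh1a enzymes. Crabp proteins hold retinoic acid in the cytosol, Crabp2 handing it to nuclear receptors, while Cyp26 enzymes break it down. The retinoic acid receptor gene Rarb is itself a classical target of the hormone. In kidney this signal is known for its part in branching of the embryonic ureteric tree, and the proximal tubule of the adult recovers filtered Rbp4 through megalin.

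Promoter sequences, short windows around the RefSeq start (GRCm38.p6, the assembly of the mm10 build that the submitters' notes name), were found for 6 of the 9 genes, in 8 windows. The Crabp1 window (chr9:54764498-54764797, + strand) is shown because Crabp1 has the largest difference of the 9 genes. The Rarb window (chr14:16575427-16575726, - strand) is shown because it holds the textbook retinoic acid response element. Capitals mark GC boxes (GGGCGG, either strand) in Crabp1 and the repeated units GGTTCA and AGTTCA, 5 bases apart, in Rarb.
Crabp1: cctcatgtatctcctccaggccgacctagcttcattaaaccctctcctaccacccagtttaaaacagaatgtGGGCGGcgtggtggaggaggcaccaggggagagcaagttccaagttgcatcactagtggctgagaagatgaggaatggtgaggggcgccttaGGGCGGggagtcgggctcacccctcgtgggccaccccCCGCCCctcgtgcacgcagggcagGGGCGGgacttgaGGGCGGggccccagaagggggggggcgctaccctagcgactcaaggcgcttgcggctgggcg
Rarb: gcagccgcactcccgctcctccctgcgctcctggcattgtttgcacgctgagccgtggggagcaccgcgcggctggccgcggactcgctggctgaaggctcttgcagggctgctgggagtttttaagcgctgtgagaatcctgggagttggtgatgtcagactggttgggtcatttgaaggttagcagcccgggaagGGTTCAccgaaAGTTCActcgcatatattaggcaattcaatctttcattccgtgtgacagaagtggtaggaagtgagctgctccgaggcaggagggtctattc

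The Crabp1 window held 5 GC boxes, a motif found in 35.7% of 32851 promoter windows, and had 65.0% G and C, against a median of 52.7% over all windows. The Rarb repeat, whose bases are given below, begins 53 bases before the start, and the same units with any 5 bases between them occur in 2 of the 32851 windows.
Rarb repeat (chr14:16575513-16575529, - strand): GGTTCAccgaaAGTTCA
The E-box CACGTG, the sequence that Bmal1 with its partner recognizes, was in none of the 8 windows and is in 7.15% of all windows. The receptor unit AGGTCA was likewise in none of the 8 windows, against 16.3% of all windows. These are matches of letters in a short window and say nothing of binding elsewhere. Of the 9 genes, 3 had 50-base stretches in the last 500 bases of their annotated transcripts that also occur in transcripts of other genes. They were Aldh1a1, 74 of whose 2258 stretches occur in its neighbour Aldh1a7, Aldh1a3, with 53 of 2140, and Rarb, with 1016 of 2696 shared with Top2b, which lies on the other strand. How the authors treated strand and shared reads is not given, so those values are uncertain to that extent.

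**Figure D1:**
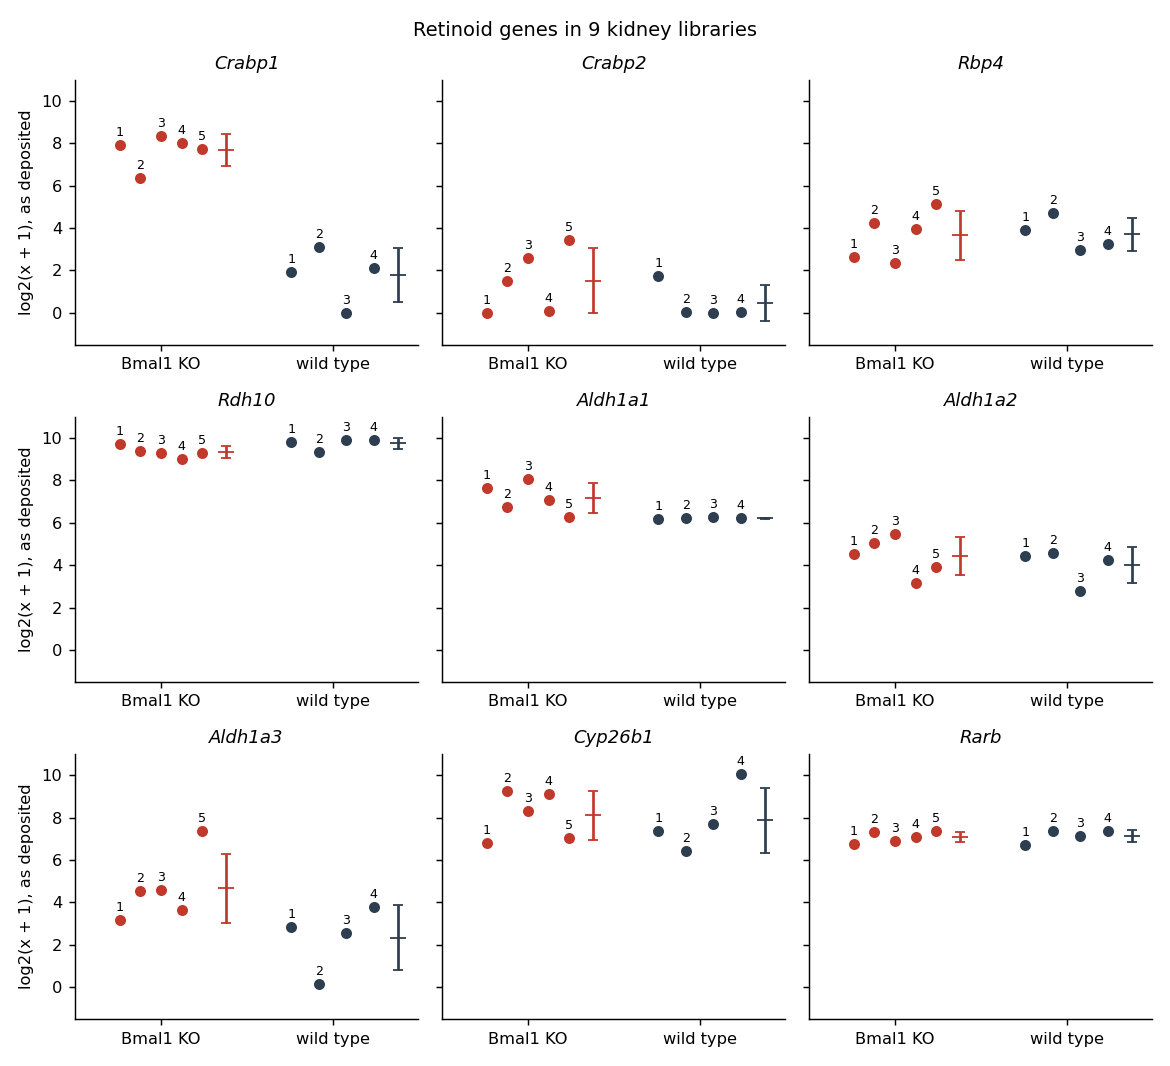
Deposited log2(x + 1) values (vertical axis) of the 9 retinoid genes in 5 Bmal1 knockout (red) and 4 wild-type (dark) kidney libraries. Numbers are replicates and the bars beside them the mean ± SD of each genotype. Crabp1 lies at 6.37 to 8.34 in knockout and 0 to 3.10 in wild type, Aldh1a1 spreads over 6.26 to 8.08 in knockout against 6.19 to 6.256 in wild type, and the other 7 genes overlap between genotypes.

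The order of levels differed between the genotypes mainly through Crabp1. In knockout, mean levels on the log2 scale ran from Rdh10 (9.34) through Cyp26b1 (8.11), Crabp1 (7.67), Aldh1a1 (7.16), Rarb (7.09), Aldh1a3 (4.66), Aldh1a2 (4.42) and Rbp4 (3.66) to Crabp2 (1.52). In wild type the order was Rdh10 (9.75), Cyp26b1 (7.88), Rarb (7.14), Aldh1a1 (6.22), Aldh1a2 (4.01), Rbp4 (3.70), Aldh1a3 (2.33), Crabp1 (1.79) and Crabp2 (0.45). Crabp1 was thus 3rd in knockout and 8th in wild type. Every neighbour in the knockout order overlapped the next in its range of libraries. In wild type this also held for all neighbours except Rarb with Aldh1a1 and Aldh1a1 with Aldh1a2, whose ranges were separate.

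Crabp1 (chromosome 9, 54764748 to 54773110, + strand, GRCm38) encodes a cytosolic binding protein for retinoic acid. It was at 7.93, 6.37, 8.34, 8.02 and 7.72 in knockouts 1 to 5, against 1.95, 3.10, 0 and 2.10 in wild types 1 to 4. All 5 knockouts thus stood far above the wild types, wild type 3 had no signal, and knockout 2 was the lowest of its group. In x the means were 222.9 in knockout and 3.43 in wild type. Its log2 difference was 5.89 (SE 0.51), the largest among 13481 genes tested, and the next, 5.28, was that of the amino acid transporter gene Slc7a12. No wild-type library reached an x of 10, so Crabp1 was tested only through the knockouts and had to differ. The difference ran from 5.29 without wild type 3 to 6.33 without wild type 2, and was 4.71 with a pseudocount of 5. The nearest tested genes on chromosome 9 had no difference near that size. Wdr61, at 30.2 kb, had a log2 difference of 0.06 (SE 0.12, limma adjusted p = 0.795) and Dnaja4, at 48.4 kb, of -0.30 (SE 0.16, adjusted p = 0.239), while Ireb2, at 90.7 kb, was at -0.06 (SE 0.13, adjusted p = 0.800). Hykk, a hydroxylysine kinase gene at 144.2 kb, fell by 0.705 (SE 0.13, adjusted p = 0.00131).

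Marker lists that separated the genotypes are given beside Crabp1, against a background of 6.16% of all tested genes called higher and 8.2% called lower. All marker lists were chosen with earlier results of these data known, so their counts are descriptions and support no statement. Of 7 genes listed as female-biased in kidney 5 rose and 2 fell, with a summed x of 10493 to 14799 in knockout and 5368 to 8861 in wild type. Those that rose were Slc7a12, the prolactin receptor gene Prlr, Hao2, Cyp4a14 and Slc22a29, by 1.47 to 5.28 on the log2 scale (limma adjusted p of 0.000314 or less). Akr1c18 fell by 1.79 and Cyp2a4 by 3.78. The sex bias in kidney of the listed genes, Cyp2a4 among them, was not checked here, since the labels give no sex. The fall of Cyp2a4 is therefore not read as an exception to the list. Of 10 male-biased genes 9 fell and none rose. They were Slco1a1, Acsm3, Cyp4b1, Cyp2j13, Cyp4a12a, Cyp2e1, Slc22a30, Cndp2 and Ces1f, with differences of -4.98 (Cyp4a12a) to -1.17 (Ces1f), and the remaining and most abundant one, the androgen-regulated Kap, had a difference of -0.67 (SE 0.23, adjusted p = 0.0604). Urothelial markers, of which 6 of 7 tested rose, summed to 976 to 1812 in knockout and 503 to 606 in wild type. Among the 6, Krt15 was tested only through the knockouts, and Krt7 was the largest part of the sum.

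The summed x of 3 other cell type lists also separated the genotypes. Proximal tubule markers summed to 419366 to 453028 in knockout and 581245 to 789180 in wild type, a sum that Kap dominates. Of its 11 genes 4 fell, among them the anion transporter genes Slc22a6 (log2 difference -1.21, limma adjusted p = 1.39e-06) and Slc22a8 (-1.32, adjusted p = 1.09e-06), and none rose. The phosphate transporter gene Slc34a1, the most abundant after Kap, had a difference of -0.28 (SE 0.13, limma adjusted p = 0.173). Podocyte markers summed to 5646 to 6327 in knockout and 4472 to 5145 in wild type, and 2 of 9 rose, with Podxl (adjusted p = 0.181) and Cdkn1c (adjusted p = 0.00155) the most abundant. Fibroblast and pericyte markers summed to 3879 to 6237 in knockout and 3214 to 3637 in wild type, and 3 of 10 rose, with Dcn (adjusted p = 0.00378) and Col1a2 (adjusted p = 0.118) the most abundant. Endothelial sums overlapped, at 4580 to 8525 in knockout and 3478 to 4899 in wild type, and 3 of 8 rose, the most abundant being Plvap, by 1.035 on the log2 scale, and Ehd3 (adjusted p = 0.0156). None of 7 tested retinoic acid responsive genes passed the test, as described below. In bulk RNA more cells of a type and more RNA per cell cannot be told apart, and the part of these shifts in the level of Crabp1 was not tested.

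Crabp2, the partner that delivers retinoic acid to receptors, was near the floor. It was at 0, 1.51, 2.59, 0.07 and 3.45 in knockouts 1 to 5, against 1.73, 0.03, 0 and 0.03 in wild types 1 to 4. The genotypes overlapped, no library reached an x of 10, and the gene was not tested. Its highest value was in knockout 5.

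Rbp4, the carrier of retinol in plasma made mainly by liver and fat, was low and did not separate the genotypes. Its values were 2.66, 4.23, 2.33, 3.95 and 5.12 in knockouts 1 to 5, against 3.90, 4.71, 2.97 and 3.24 in wild types 1 to 4. The log2 difference was -0.05 (SE 0.595), and its sign depended on the library left out, from -0.41 without knockout 5 to 0.29 without wild type 2. Adipoq, the fat cell hormone adiponectin, chosen after its values were seen, was at 0, 6.44, 2.82, 4.69 and 9.06 in knockouts 1 to 5 and at 0.54, 2.69, 0 and 1.13 in wild types 1 to 4. Knockout 5 was highest and wild type 2 was the highest wild type for both genes, whereas knockouts 1 and 3 were lowest in Rbp4 and the 2 lowest knockouts in Adipoq. The lipid droplet gene Plin1, also chosen afterwards, reached 6.68 in knockout 5 and 3.90 in knockout 2 and was at 0.79 or less in the other 7 libraries. The summed x of 7 fat cell markers was 2860 to 11863 in knockout, with the maximum in knockout 5, and 2274 to 3820 in wild type. Of 4 tested fat cell markers none passed the test, among them the most abundant, Fabp4 (adjusted p = 0.163) and Pnpla2 (adjusted p = 0.523). Liver markers summed to an x of 5516 to 8543 in knockout, with 5745 in knockout 5, and 6629 to 9047 in wild type. Ttr dominates this sum. The liver genes Hpx, Tat, Cps1 and Ahsg were too low to be tested, at means of 1.935 or less in either genotype. Of 6 tested, the apolipoprotein gene Apoa2 rose by 1.45 (limma adjusted p = 8.04e-05) and the albumin gene Alb fell by 2.02 (adjusted p = 2.46e-05), while the most abundant, Ttr (adjusted p = 0.272) and Apob (adjusted p = 0.404), did not pass. The part of fat or liver transcripts in the Rbp4 level was not tested.

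**Figure D2:**
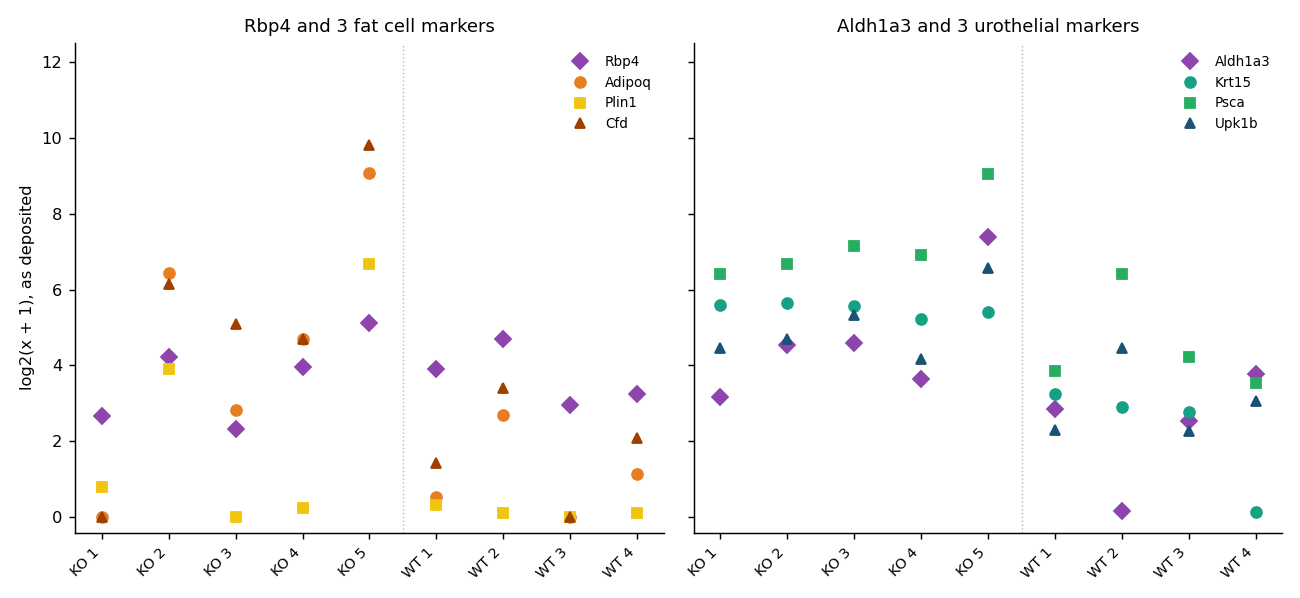
Deposited log2(x + 1) values (vertical axis) in the 9 libraries, knockouts left of the dotted line and wild types right of it. Left, Rbp4 (diamonds) with the fat cell markers Adipoq, Plin1 and Cfd, which are highest in knockout 5. Right, Aldh1a3 (diamonds) with the urothelial markers Krt15, Psca and Upk1b, where knockout 5 is again highest for all but Krt15.

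Rdh10 (chromosome 1, 16105774 to 16133734, + strand), the main retinol dehydrogenase of retinoic acid synthesis, was the most abundant of the 9 genes in both genotypes. It was at 9.74, 9.39, 9.27, 8.99 and 9.31 in knockouts 1 to 5, against 9.81, 9.36, 9.89 and 9.925 in wild types 1 to 4. Of the knockouts 3 lay below every wild type, but knockouts 1 and 2 lay within the wild-type range, and wild type 2 was the low wild type. The log2 difference was -0.41 (SE 0.15). With the share of Rn45s as a covariate it was -0.16, and without wild type 2 it was -0.535. The share of Rn45s was 11.3% in wild type 2 and 5.07% to 7.20% in the other wild types.

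Aldh1a1 (chromosome 19, 20492715 to 20643465, + strand), a retinaldehyde dehydrogenase, was nearly constant in wild type and spread widely in knockout. It was at 7.63, 6.75, 8.08, 7.07 and 6.26 in knockouts 1 to 5, against 6.19, 6.205, 6.256 and 6.235 in wild types 1 to 4. All knockouts were above all wild types, but knockout 5 exceeded the highest wild type only in the third decimal. The log2 difference was 0.94 (SE 0.28), from 0.71 without knockout 3 to 1.16 without knockout 5. The SD between libraries was 0.72 in knockout (n = 5) and 0.029 in wild type (n = 4), and their ratio of 24.7 was exceeded by 0 of the 13481 genes tested. This ratio was computed after the values were seen, and it rests on the small SD in wild type. The range of Aldh1a1 over the 9 libraries was 1.89 on the log2 scale, and 13.9% of tested genes had a larger one. Its paralog Aldh1a7, 49.5 kb away, ran at 7.925, 6.905, 7.71, 7.075 and 7.39 in knockouts 1 to 5 and 7.29, 7.27, 7.33 and 7.52 in wild types 1 to 4. Knockouts 1 and 3 were the highest for both genes, and the log2 difference of Aldh1a7 was 0.05 (SE 0.195, limma adjusted p = 0.905). The annexin gene Anxa1, a neighbour on the other side at 101.8 kb, had a difference of -0.08 (SE 0.20, adjusted p = 0.847). Farther out, Zfand5, at 628.8 kb, had a difference of -0.18 (SE 0.12, adjusted p = 0.343). Rorb, at 1381.5 kb, had a difference of -2.425 (SE 0.62, adjusted p = 0.0129).

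Aldh1a2 (chromosome 9, 71215789 to 71296243, + strand), the chief source of retinoic acid in the embryo, was low in both genotypes. It was at 4.52, 5.03, 5.47, 3.18 and 3.92 in knockouts 1 to 5, against 4.45, 4.59, 2.77 and 4.23 in wild types 1 to 4. The genotypes overlapped, with a log2 difference of 0.41 (SE 0.505) that was -0.001 without wild type 3. Mesothelial cells are a known site of this enzyme. The summed x of 6 mesothelial markers was 2247 to 3007 in knockout and 2561 to 3352 in wild type. Gpm6a dominates this sum. Of 3 tested, Wt1, which podocytes also express, rose by 0.57 (limma adjusted p = 0.0491), while Gpm6a, the most abundant, had a difference of -0.15 (adjusted p = 0.440) and Krt19 of 1.05 (adjusted p = 0.0638). Msln, Upk3b and Lrrn4 were too low to be tested. Their means were 2.02, 1.84 and 1.69 in knockout and 0.45, 1.25 and 0.03 in wild type. The part of these cells in the Aldh1a2 level was not tested.

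Aldh1a3 (chromosome 7, 66390890 to 66427517, - strand), known from epithelia of the ureter and collecting system in the mouse embryo, had its highest value in knockout 5. It was at 3.165, 4.54, 4.59, 3.63 and 7.37 in knockouts 1 to 5, against 2.85, 0.17, 2.55 and 3.77 in wild types 1 to 4. In x, knockout 5 had 165 and every other library 23.1 or less, and knockouts 1 and 4 lay below wild type 4. The log2 difference was 2.33 (SE 0.79), 1.65 without knockout 5, 1.604 without wild type 2 and 1.62 with a pseudocount of 5. The summed urothelial markers were also highest in knockout 5, although Krt7 was highest in knockout 1 and Krt15 in knockout 2. Psca, a urothelial surface antigen, was at 6.405, 6.66, 7.16, 6.91 and 9.04 in knockouts 1 to 5 and 3.84, 6.40, 4.21 and 3.54 in wild types 1 to 4. Upk1b, a uroplakin of the bladder and pelvis lining, was at 4.45, 4.705, 5.33, 4.16 and 6.56 in knockouts 1 to 5 and 2.29, 4.47, 2.28 and 3.08 in wild types 1 to 4. Wild type 2 was the lowest library for Aldh1a3 but the highest wild type for Psca and Upk1b. Krt7, the most abundant urothelial marker, and Upk1a and Upk3a also rose, by 0.80, 2.06 and 1.90 on the log2 scale (limma adjusted p = 0.000284, 0.000485 and 0.00197). The basal keratin Krt15 was higher by 3.22, but no wild type reached an x of 10 for it. Krt15 was thus tested only through the knockouts and had to differ. The summed x of the 10 markers was 1812 in knockout 5, 976 to 1210 in the other knockouts and 503 to 606 in wild type. Krt7 was the largest part of this sum, with an x of 699 to 938 in knockout and 376 to 536 in wild type. The share of the urothelial shift in Aldh1a3 was not tested.

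Cyp26b1 (chromosome 6, 84571414 to 84593908, - strand), the retinoic acid hydroxylase, varied strongly between libraries of the same genotype. It was at 6.82, 9.26, 8.30, 9.13 and 7.03 in knockouts 1 to 5, against 7.35, 6.42, 7.705 and 10.04 in wild types 1 to 4. The extremes were both wild types, with x of 84.4 in wild type 2 and 1050 in wild type 4. Its range over the 9 libraries was 3.62 on the log2 scale, and 2.36% of tested genes had a larger one. The log2 difference between genotypes was 0.23 (SE 0.57), and it was 0.95 without wild type 4 and -0.26 without wild type 2. Its relatives Cyp26a1 and Cyp26c1 were not tested, at a mean of 1.14 in knockout and 0.42 in wild type for Cyp26a1 and at 0 in all libraries for Cyp26c1.

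Rarb (chromosome 14, 16430839 to 16819156, - strand), the receptor gene whose promoter repeat is shown above, was the steadiest of the 9 genes. It was at 6.77, 7.31, 6.91, 7.10 and 7.36 in knockouts 1 to 5, against 6.72, 7.35, 7.13 and 7.35 in wild types 1 to 4. The ranges nearly coincided, and the log2 difference was -0.05 (SE 0.19), between -0.185 and 0.06 over the 20 alternatives. Its range over all libraries was 0.64, and 72.6% of tested genes had a larger one.

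Of the 9 genes 8 were tested, and the fit across all genes called 2 of them, Crabp1 and Aldh1a1, both higher in knockout. Over all tested genes 14.4% were called, 6.16% higher and 8.2% lower. Of these calls 42.9% were higher, against 58.1% with upper-quartile scaling and 64.7% when totals omit Rn45s. The genotypes did not overlap in the same 2 of the 9 genes, against 14.3% of all tested genes (5.86% higher and 8.46% lower). Since the genes were chosen partly on this contrast, nothing is read from these counts. The median log2 difference of the 8 genes was 0.32, against 0.0002 over all genes tested.

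A wider set of 58 other genes of the pathway, chosen with earlier results of these data known, included enzymes of retinol and carotenoid metabolism that changed. Of 41 tested, 3 rose and 9 fell (29.3% called, against 14.4% of all genes), with a median log2 difference of -0.04 against 0.0002. With upper-quartile scaling 3 rose and 6 fell, Rdh5, Rxra and Ncoa3 being lost, and with totals that omit Rn45s 3 rose and 5 fell, Aldh8a1 being lost as well. By role, 2 rose and 5 fell of 17 genes for storage of retinol and formation of retinaldehyde, 1 rose and 1 fell of 7 for binding and transport, 1 fell of 2 for retinaldehyde oxidation and 2 fell of 8 receptors and coregulators. None of 7 responsive genes changed, and the 2 other Cyp26 genes were not tested. The size of these shares was not compared between roles.

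Among enzymes acting on retinol and carotenoids, 5 fell. Adh1, an abundant alcohol dehydrogenase that also oxidizes retinol, was at 12.3, 12.2, 12.1, 12.1 and 11.8 in knockouts 1 to 5, against 13.5, 13.4, 13.6 and 13.6 in wild types 1 to 4. It fell by 1.44 (log2 difference, SE 0.11, limma adjusted p = 4.70e-08), with all 5 knockouts below all wild types. Bco1, which cleaves β-carotene to retinaldehyde, averaged 3.68 ± 0.83 in knockout and 5.65 ± 0.38 in wild type (SD, n = 5 and 4) and fell by 1.97 (SE 0.42, adjusted p = 0.00367). Retsat, the retinol saturase, averaged 10.8 in knockout and 11.6 in wild type and fell by 0.72 (SE 0.105, adjusted p = 0.000124). Dhrs4, a reductase acting on retinaldehyde, fell by 0.49 (SE 0.10, adjusted p = 0.00316) and Rdh5, known as a retinol dehydrogenase of the eye, by 0.78 (SE 0.24, adjusted p = 0.0362). Exons of Rdh5 overlap those of Bloc1s1 on the same strand, and those of Retsat and Adh1 overlap the transcripts Gm45053 (Retsat) and Gm16559 (Adh1) on the other strand, so their values are uncertain in that respect.

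Increases were fewer. Rdh16, a retinol dehydrogenase that shares 50-base stretches with Rdh9 and Rdh16f1, so that its value is uncertain, averaged 11.4 in knockout and 10.9 in wild type, and rose by 0.50 (SE 0.11, limma adjusted p = 0.00524). Lrat, which esterifies retinol for storage, was at 6.41, 5.78, 6.07, 6.655 and 5.93 in knockouts 1 to 5, against 5.85, 4.89, 5.525 and 4.875 in wild types 1 to 4. It rose by 0.885 (SE 0.27, adjusted p = 0.0376), with knockout 2 below wild type 1. Stra6, the membrane receptor that takes up retinol from Rbp4, averaged 5.145 ± 0.27 in knockout and 4.08 ± 0.55 in wild type (SD, n = 5 and 4) and rose by 1.06 (SE 0.345, adjusted p = 0.0470). Its relative Stra6l, a second Rbp4 receptor, went the other way: it averaged 6.92 ± 0.26 in knockout and 7.68 ± 0.32 in wild type, and fell by 0.76 (SE 0.19, adjusted p = 0.00948).

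The remaining calls were small decreases. Aldh8a1, an abundant aldehyde dehydrogenase listed here under retinaldehyde oxidation, fell by 0.47 (SE 0.13, limma adjusted p = 0.0218). The receptor gene Rxra, the partner of the retinoic acid receptors, fell by 0.35 (SE 0.10, adjusted p = 0.0214). The coactivator gene Ncoa3, whose exons overlap Sulf2 on the other strand, fell by 0.405 (SE 0.13, adjusted p = 0.0425). The most abundant genes of their lists that did not pass were the megalin gene Lrp2 (difference -0.62, SE 0.22, adjusted p = 0.0735), the storage and reduction enzyme Dhrs3 (0.285, SE 0.135, adjusted p = 0.181), Aldh1a7 as given above, the corepressor Ncor1 (-0.29, SE 0.12, adjusted p = 0.119) and, among responsive genes, the transglutaminase Tgm2 (-0.06, SE 0.09, adjusted p = 0.695). The responsive genes Rarres2 (0.02, SE 0.17) and Hoxa5 (0.13, SE 0.15, adjusted p = 0.630) showed no call either. Genes of the other lists, among them the called Stra6 and Lrat, were not sorted by their response to retinoic acid. The part of the lower proximal tubule markers, a list that also holds Lrp2 and Cubn, in these decreases was not tested.

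Not all of these calls were stable to single libraries. Rdh16, Dhrs4, Adh1 and Retsat passed under all 20 alternatives, Bco1 under all 19 in which it was tested and Stra6l under 19 of 20, failing with the share of Rn45s as a covariate (-0.58, adjusted p = 0.0800). Stra6 passed under 5 of 19 and was lost without any 1 of wild types 2, 3 and 4 or of the 5 knockouts (adjusted p 0.0504 to 0.118). Rdh5 was lost without wild types 1, 3 or 4 or knockouts 3, 4 or 5 (0.0505 to 0.148), Lrat without wild types 2 or 4 or knockouts 1, 3 or 4 (0.0617 to 0.115), and Aldh8a1 without wild types 1, 3 or 4 or knockouts 3, 4 or 5 (0.0515 to 0.0788). Rxra was lost without wild types 3 or 4 or knockout 2 (0.0510 to 0.0557) and Ncoa3 without wild types 1, 3 or 4 or knockouts 1 to 4 (0.0622 to 0.138), each by the same limma test.

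**Figure D3:**
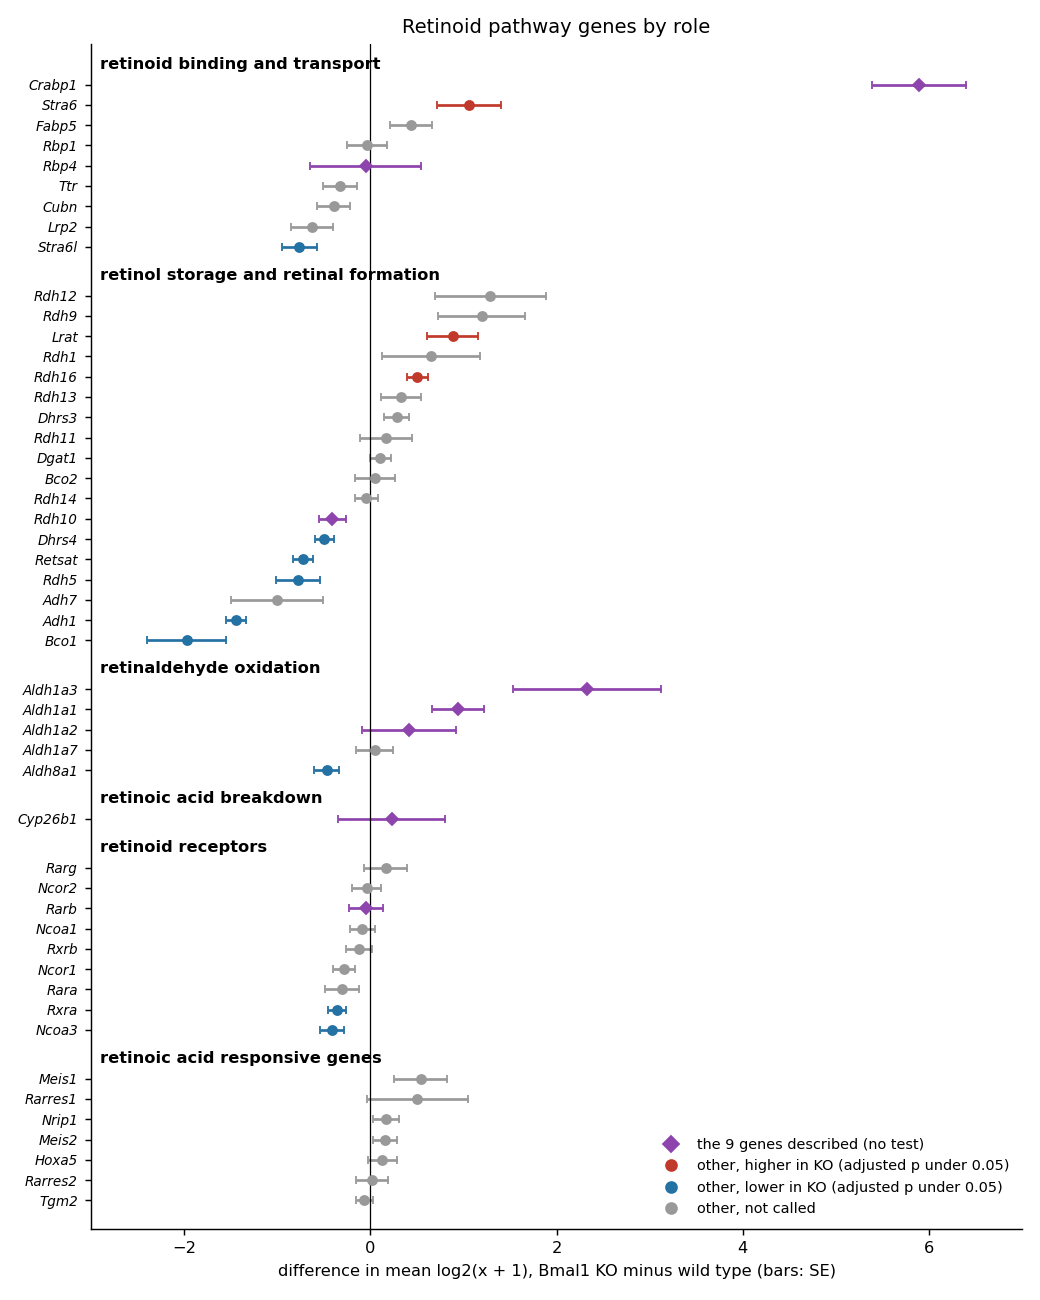
Difference in mean log2(x + 1) between Bmal1 knockout and wild type (horizontal axis, bars SE) for the 8 tested genes of the 9 and the 41 other tested pathway genes, grouped by role. Crabp1 lies far to the right at 5.89, Adh1 (-1.44) and Retsat (-0.72) lie to the left, and no responsive gene passed the test.

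The genes whose pattern over the 9 libraries was most like that of Crabp1 were named by the smallest root mean square distance between log2 values, each gene centred on its own mean. They were Bhmt, a betaine-homocysteine methyltransferase (distance 1.07), Slc7a12 (1.19), Naip1, of the inhibitor of apoptosis family that has close copies (1.30), the lysyl oxidase Loxl4 (1.44) and the water channel Aqp8 (1.51). Knockout 2, the lowest knockout for Crabp1, was also the lowest for Loxl4, at 7.42, but was the highest for Slc7a12, at 10.243, with the other knockouts at 9.47 to 10.02 and the wild types at 4.06 to 5.02. Slc7a12 is on the list of female-biased genes. Because the distance keeps the size of each difference, genes near Crabp1 are bound to be other large increases, and nothing is read from this. Naip1, at 1.67 or less in every wild type, was also tested only through the knockouts.

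**Figure D4:**
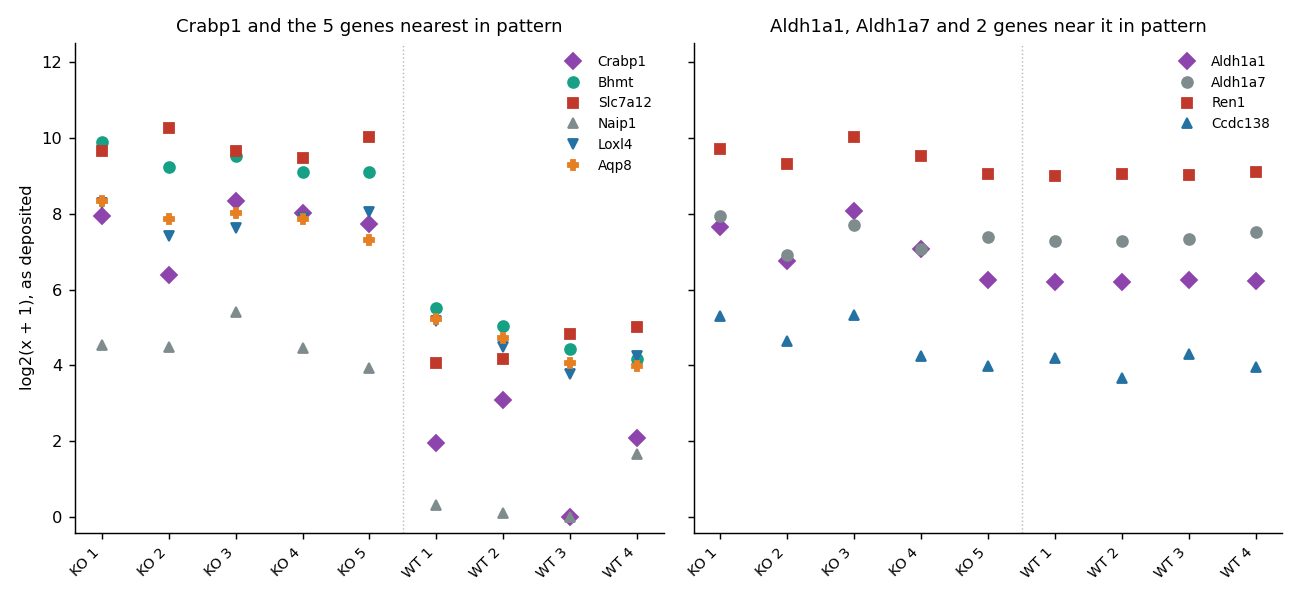
Deposited log2(x + 1) values (vertical axis) by library, knockouts left of the dotted line and wild types right of it. Left, Crabp1 (diamonds) and the 5 genes nearest to it in pattern, all higher in every knockout than in any wild type. The distance favours genes with such a difference. Right, Aldh1a1 (diamonds), its paralog Aldh1a7, and Ren1 and Ccdc138, which are 0.32 and 0.30 from Aldh1a1 in pattern.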

How the data were processed

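RNA was extracted with Trizol and sequenced as QuantSeq 3′ libraries, per the labels' protocols. Bowtie2 and bedtools, without versions, and the build mm10 are listed in the submitters' processing notes. The authors deposited 1 table per library in log2 units, log2(x + 1), with x brought to similar totals. Which normalization, annotation and strand setting they used is not given in the sources. Judged by its values, x behaves as an adjusted read count, not as raw counts, so no count model was used and counting intervals are not given.

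Genes needed an x of 10 or more in 4 or more of the 9 libraries to be tested, which kept 13481 of 23282 symbols (5113 symbols were at 0 throughout). The fit used limma 3.58.1 under R 4.3.3 on the deposited log2 values (genotype as the single term, prior variance following the mean, two-sided, Benjamini-Hochberg over all tested genes, threshold 0.05), after the script was tested on simulated data. Library measures were compared by exact permutation. Differences are knockout minus wild type. For genes at low x they come out too small.

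The 9 genes, the pathway and marker lists and the rules for naming genes were chosen with earlier results of these data known. Named were the 9 genes, called genes of the pathway lists, the most abundant uncalled gene of each, the 5 genes nearest to Crabp1 in pattern, and, of marker lists given beside a gene, the 2 most abundant members and called members that changed by 1 or more on the log2 scale. Mesothelial markers are named in addition. Gene positions are from GENCODE M21 (GRCm38) and promoters from RefSeq. Alternatives were other filters, pseudocounts and scalings, a covariate, the prior variance, a replicate block and leaving out libraries.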

Additional observations from a re-analysis of the deposited data

Results flagged for a closer look

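In 70 groups of values, each from the libraries of a single genotype, 2 values stood apart by Dixon's criterion, and chance alone flags about 1 in 20. Crabp2 was at 1.73 on the log2 scale in wild type 1, with the other wild types at 0 to 0.03, a value of a few tags. Rdh5 was at 7.28 in wild type 1 against 6.395 to 6.53 in the other wild types, and its call was lost without that library, as given above.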

How the results depend on the processing

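The number of genes changed between genotypes was 1937, and it was 1222 with the share of Rn45s as a covariate, while leaving out 1 library gave 1416 to 2264 changed genes. Of the 12 other pathway genes called, 7 passed after quantile normalization and 5 with the Rn45s covariate. Leaving out 1 library gave 6 (without wild type 4) to 13 (without wild type 2) pathway genes called, and 10 of those 13 were among the 12. There were 7 without wild type 3, knockout 3 or knockout 4. Why the Rn45s covariate and quantile normalization lower these counts was not tested. Among changed genes 831 were higher and 1106 lower as deposited, against 1272 and 695 when scaled to totals that omit Rn45s and 1123 and 811 with upper-quartile scaling. The first of these moved the median of all genes by 0.105, and the differences above would move up by about as much. With wild type 2 and knockout 4 left out together, 1863 genes and 11 pathway genes passed, 9 of the 11 being among the 12 called above. Replicate numbers are shared by the genotypes. The correlation of same-numbered deviations was 0.151, 0.001, -0.007 and 0.041, and 1 of 4 knockouts correlated best with its own number. So few correlations cannot decide whether the numbers pair the libraries, and the main fit did not use them. The replicate block, over replicates 1 to 4, gave 1739 genes and 12 pathway genes, 10 of them among the 12 called above, against 1634 and 9 without the block in the same libraries, a fit chosen after seeing the data. No difference of a called gene changed sign under any of the alternatives run. The raw depth is unknown, and low genes such as Crabp2, Rbp4 and Aldh1a2 rest on few tags.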

Other observations

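Patterns nearest to the other variable genes were looked up with the same distance, a step added after the data were seen. The distance selects genes of like pattern, so likeness among the genes named is built in and nothing is read from it. Aldh1a1 lay close to Ccdc138 (0.30), Rasd1 (0.30), Casp12 (0.305), the renin gene Ren1 (0.32) and Tppp (0.33). Ren1 was at 9.71, 9.32, 10.02, 9.52 and 9.05 in knockouts 1 to 5, against 8.99, 9.04, 9.015 and 9.09 in wild types 1 to 4, so that its knockouts stand in the same order as those of Aldh1a1 and its wild types also lie close together. The log2 difference of Ren1 was 0.49 (SE 0.15), and knockout 5 lay within its wild-type range. Aldh1a3 lay closest to Arxes2 (0.72), Atp10b (0.80) and Elf5 (0.83), all higher in knockout 5 than in any other library. These genes were also near 0 in wild type 2, at 0.156, 0.123 and 0.126, as Aldh1a3 was, at 0.167. Atp10b, at 3.386 or less in every wild type, and Elf5, at 3.068 or less, were tested only through the knockouts. For Cyp26b1 the nearest were Slfn9 (0.585), the lymphotoxin gene Ltb (0.64) and Lrrtm2 (0.66), low genes at a mean of 4.07 or less on the log2 scale in either genotype.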
